A study of Mus musculus with 5 samples.

Results

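The genes described here encode the nuclear subunits of the mitochondrial respiratory chain and the ATP synthase. Every gene present in all 5 files whose symbol begins with Ndufa, Ndufb, Ndufc, Ndufs, Ndufv, Uqcr, Cox4, Cox5, Cox6, Cox7, Cox8 or Atp5 was taken, without reference to its level, which gave 70 of the 6543 genes that the files share. By complex they are 33 subunits of complex I, 4 complex I assembly factors (the Ndufaf genes), 8 of complex III, 12 of complex IV, in which Ndufa4 is counted, and 13 of complex V. The libraries are inDrop single-cell libraries (a droplet method that tags each captured mRNA with a unique molecular identifier, UMI) of polyA RNA from viable islet cells, isolated and dissociated from the pancreas of mice of strain C57BL/6. There is 1 non-pregnant library, 2 are pregnant and 2 are postpartum. The labels give no genotype beyond the strain, no further treatment, no gestational or postpartum day and no age, and they do not say that libraries of a group came from separate animals. The p-values below therefore rest on the spread between these libraries, pooled in part or in full over genes. That spread may be technical.

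Complex I takes electrons from NADH, complex III passes electrons from ubiquinol to cytochrome c, complex IV passes them to oxygen, and all of them pump protons across the inner mitochondrial membrane. Complex V, the ATP synthase, uses the resulting gradient to make ATP. In beta cells, a rise in the ATP to ADP ratio after glucose is metabolised closes potassium channels and starts insulin release, so this machinery is part of how the cells sense glucose. Most subunits have a nuclear gene, and complexes I, III, IV and V also contain subunits made from mitochondrial DNA.

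Cells were classed by the hormone with the most UMIs, with Ins1 and Ins2 added together. The non-pregnant library had 680 insulin-led and 94 glucagon-led cells, pregnant 1 had 1773 and 141, pregnant 2 had 121 and 23, postpartum 1 had 402 and 123, and postpartum 2 had 896 and 179. Somatostatin-led cells numbered 7 to 39 and Ppy-led cells 3 to 35 in a library. Levels are UMIs per 1000000 non-hormone UMIs (CPM), summed over the cells of a class in a library, and their 95% intervals are exact Poisson intervals that cover counting error only. Summed levels of 9 beta cell markers were 4968 to 12098 CPM in insulin-led cells and 0 to 1113 CPM in glucagon-led cells. The 7 alpha cell markers were at 26672 to 71167 CPM in glucagon-led cells and at most 3522 CPM in insulin-led cells. Classing by hormone leaves no class for other cells: 5 endothelial markers summed to 367 to 591 CPM in the insulin-led cells of the libraries other than pregnant 2, with none at 0, against 0 to 74.4 CPM in glucagon-led cells. Likewise 9 acinar markers ranged from 7.68 CPM in pregnant 1 to 2332 CPM in postpartum 1 and 6344 CPM in pregnant 2 in insulin-led cells, and were at most 207 CPM in glucagon-led cells, with 9 of 9 at 0 there in both pregnant libraries. Summed levels in the libraries other than pregnant 2 were 302 to 1060 CPM in insulin-led and 124 to 636 CPM in glucagon-led cells for 4 macrophage markers, 395 to 873 and 193 to 1122 CPM for 2 ductal markers, and 179 to 509 and 0 to 138 CPM for the 1 mesenchymal marker measured. The 3 delta markers were at 76.9 to 538 and 706 to 1601 CPM, and the 2 gamma markers at 205 to 359 and 159 to 690 CPM. The part of such cells in the differences below was not tested. Insulin transcripts made up 0.322% to 3.26% of UMIs in glucagon-led cells, and Gcg 0.365% to 1.82% in insulin-led cells.

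The pregnant 2 library stands apart. It holds 164 cells with a median of 81 UMIs, against medians of 215 to 2553 in the others, and 94 UMIs of member genes in all. Of the 70 members, 12 were detected there, in 13 detections that fell in 13 cells, and 1 cell alone carried 21 UMIs of Uqcrb. Results that rest on it are given with and without it. The non-pregnant file differs from the other 4 in its scale and its list of features as well as in depth, so the non-pregnant state cannot be told apart from that difference.

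The stretches before Cox8a and Cox6a1 are shown because these complex IV genes have the highest levels of that complex on average over the libraries and differ in their motif letters. Cox8a, the member with the highest level in each library except pregnant 2, lies at chr19:7215153-7217616 on the minus strand, and Cox6a1, the widely expressed isoform of subunit 6a, at chr5:115345642-115348981 on the minus strand (GRCm38, GENCODE M21). The bases just upstream of both are printed from RefSeq (GRCm38.p6) as the gene is read, 5′ to 3′, for chr5:115348982-115349208 and chr19:7217617-7217866. Capitals mark letters of 4 motifs searched on both strands: GCGCANGCG (NRF-1), CCGGAAG (ETS), AAGATGG (YY1) and GGGCGG (SP).
Cox6a1 upstream: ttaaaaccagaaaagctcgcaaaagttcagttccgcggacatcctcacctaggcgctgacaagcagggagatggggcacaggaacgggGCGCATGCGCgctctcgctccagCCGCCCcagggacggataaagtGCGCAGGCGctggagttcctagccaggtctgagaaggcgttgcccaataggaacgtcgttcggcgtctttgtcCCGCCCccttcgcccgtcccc
Cox8a upstream: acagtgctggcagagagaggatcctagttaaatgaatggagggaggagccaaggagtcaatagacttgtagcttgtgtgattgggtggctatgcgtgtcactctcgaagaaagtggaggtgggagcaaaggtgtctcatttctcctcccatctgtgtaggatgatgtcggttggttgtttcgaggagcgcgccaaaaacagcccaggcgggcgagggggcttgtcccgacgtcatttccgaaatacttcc
The Cox6a1 stretch holds 3 NRF-1 matches, of which a pair overlap because the letters read alike on both strands, and 2 SP matches. The Cox8a stretch holds 0 matches to the 4 motifs. Promoter windows, 250 bases before to 50 after the RefSeq start, were matched for 59 of the 70 members. Entries missing from the table include Atp5a1, Cox4i1, Cox6a2, Cox6c, Ndufa2, Ndufb9, Ndufs1, Uqcrb, Uqcrc2 and Uqcrq. The NRF-1 letters occurred in 15 of the 59 members (25.4%), against 7.03% of 27025 genes in the table. The ETS letters occurred in 15 (25.4%, against 9.93%), the YY1 letters in 10 (16.9%, against 7.28%) and the SP letters in 24 (40.7%, against 38.2%). These are matches of letters and not measured binding.

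In insulin-led cells the 70 members together took about 2% of non-hormone UMIs. Their summed level was 20660 CPM (95% interval 20389 to 20933, 22253 UMIs) in the non-pregnant library and 21472 CPM (21076 to 21874, 11182 UMIs) in pregnant 1. It was 17321 CPM (16039 to 18677, 676 UMIs) in postpartum 1 and 22027 CPM (21369 to 22700, 4240 UMIs) in postpartum 2. Pregnant 2 gave 7967 CPM (5985 to 10395) from 54 UMIs and lay below all the others. Between the postpartum libraries the sum differed by a ratio of 1.27 (95% interval 1.17 to 1.38), a wider gap than the 1.04 between pregnant 1 and non-pregnant.

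Complexes I and IV were highest and complex III lowest in the libraries other than pregnant 2. Complex I summed to 6540, 6195, 5560 and 6738 CPM in non-pregnant, pregnant 1, postpartum 1 and postpartum 2, and complex IV to 5996, 6725, 5611 and 7107 CPM. Complex V was at 5621, 5628, 4176 and 5143 CPM, lowest in both postpartum libraries. Complex III, with the fewest subunits, was at 2297, 2756, 1896 and 2873 CPM. For complexes III and IV the values of pregnant 1 and postpartum 2 lay above those of non-pregnant and postpartum 1, so neither order follows the state.

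**Figure D1:**
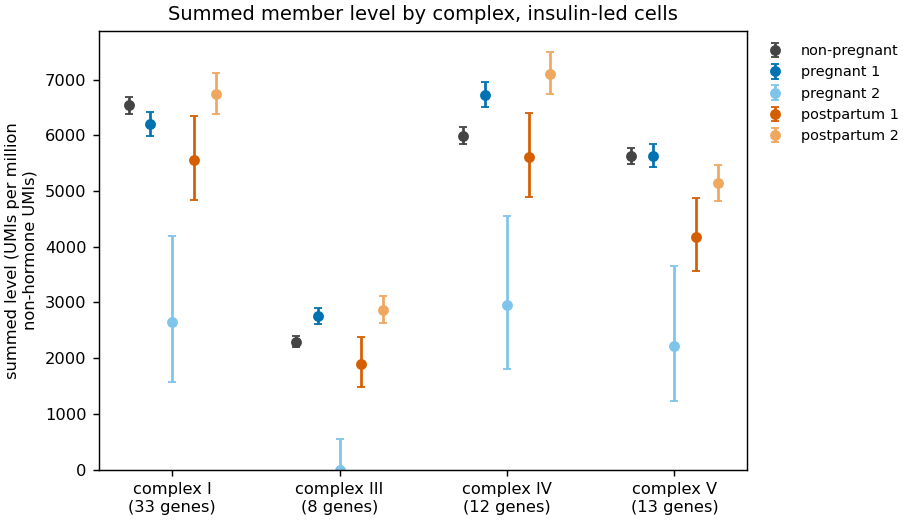
Summed level of the member genes of each complex in insulin-led cells, in CPM, by library, with exact 95% Poisson intervals. Pregnant 2, built on 54 member UMIs, sits lowest for each complex, and the other 4 libraries lie close together.

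Levels of single members ranged widely and alike in the libraries. In non-pregnant insulin-led cells they ran from 29.7 to 1480 CPM with a median of 226 CPM, and in pregnant 1 from 17.3 to 1784 CPM with a median of 208 CPM. Across the 70 members, the log2 levels of pairs of libraries other than pregnant 2 correlated with r between 0.760 and 0.883, a description over genes that share libraries and depth. UMIs count captured 3′ ends and were not scaled by length, so levels of different genes are compared as captured molecules.

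In complex I, Ndufa2, an accessory subunit, was at 641, 712, 295 (2 UMIs), 384 and 530 CPM in insulin-led cells of non-pregnant, pregnant 1, pregnant 2, postpartum 1 and postpartum 2. Leaving out pregnant 2, it was lower in both postpartum libraries than in the others. Among the core subunits in the libraries other than pregnant 2, Ndufv2 was at 154 to 265 CPM, Ndufs1 at 51.2 to 159, Ndufs3 at 69.1 to 104, Ndufv1 at 25.6 to 98.7 and Ndufs8 at 25.6 to 67.2 CPM. Ndufs7, which carries an iron-sulfur cluster, was at 101, 84.5, 102 and 77.9 CPM in those libraries and reached 1475 CPM in pregnant 2 from 10 UMIs of 1 cell. The 4 assembly factors, which help build complex I and are not part of it, were each at most 93.5 CPM in the libraries other than pregnant 2.

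In complex III, Uqcrb, a small subunit near the quinone site, was at 412, 578, 871 and 1096 CPM in non-pregnant, pregnant 1, postpartum 1 and postpartum 2, the highest of the complex in the postpartum libraries only. Insulin-led cells of pregnant 2 had 0 UMIs of it, and at that depth 3 UMIs are 443 CPM. Uqcrq was at 510, 605, 179 and 426 CPM and Uqcrh at 415, 407, 256 and 452 CPM. The Rieske iron-sulfur protein Uqcrfs1 was at 120, 167, 128 and 182 CPM. Of the large core proteins, Uqcrc2 was at 170, 150, 231 and 208 CPM and Uqcrc1, the lower in each library, at 123, 111, 25.6 and 83.1 CPM.

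Complex IV holds several subunits with tissue isoforms. Cox6a1 and Atp5g1 are among the genes that share a similar end with another annotated gene and are treated with the states below. Cox8a was at 1480, 1784, 1384 and 1886 CPM in non-pregnant, pregnant 1, postpartum 1 and postpartum 2 and was the highest member in each of these libraries. Cox6a1 was at 604, 958, 769 and 1616 CPM. Cox6a2, the isoform of subunit 6a best known from heart and skeletal muscle, was also present in insulin-led cells, at 149, 246, 282 and 332 CPM. Cox4i1 was at 607, 582, 436 and 436 CPM. Cox7a2 was at 494, 292, 307 and 171 CPM. Cox7a2l, a relative of subunit 7a found in supercomplexes of complexes III and IV, was at 472, 770, 743 and 888 CPM, above Cox7a2 in pregnant 1 and both postpartum libraries. In the non-pregnant library the counting intervals of the pair overlapped (453 to 538 CPM for Cox7a2 and 431 to 514 CPM for Cox7a2l). Cox6b1 was at 515, 668, 205 and 312 CPM.

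In complex V, the catalytic subunits Atp5a1 and Atp5b were at 609, 981, 436 and 665 CPM and at 396, 545, 333 and 582 CPM. Of the genes for the membrane ring subunit c, Atp5g1 was at 862, 1031, 820 and 571 CPM and Atp5g3 at 603, 686, 974 and 977 CPM. Atp5g3 lay below Atp5g1 in non-pregnant and pregnant 1 and above it in both postpartum libraries.

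The first question the classes allow is whether glucagon-led cells carry these transcripts at the level of insulin-led cells of the same library. Their summed level was lower in each library: 17422 CPM (2108 UMIs) in non-pregnant, 17450 (632 UMIs) in pregnant 1, 12166 (153 UMIs) in postpartum 1 and 15434 (743 UMIs) in postpartum 2. The ratio to insulin-led cells was 0.843 (95% interval 0.806 to 0.882), 0.813 (0.749 to 0.881), 0.702 (0.585 to 0.838) and 0.701 (0.647 to 0.758), with exact conditional intervals for counting error. Pregnant 2 had 1 member UMI in its glucagon-led cells. With hormone UMIs included in the denominator the ratios were 0.935, 0.894, 0.742 and 0.887, still below 1 in all 4. Complex I and complex IV were below 1, with intervals that leave out 1, in each of the 4 libraries. Complex V was below 1 in each, with intervals that include 1 in pregnant 1 and postpartum 1, and complex III reached 1.26 (0.794 to 1.95) in postpartum 1.

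**Figure D2:**
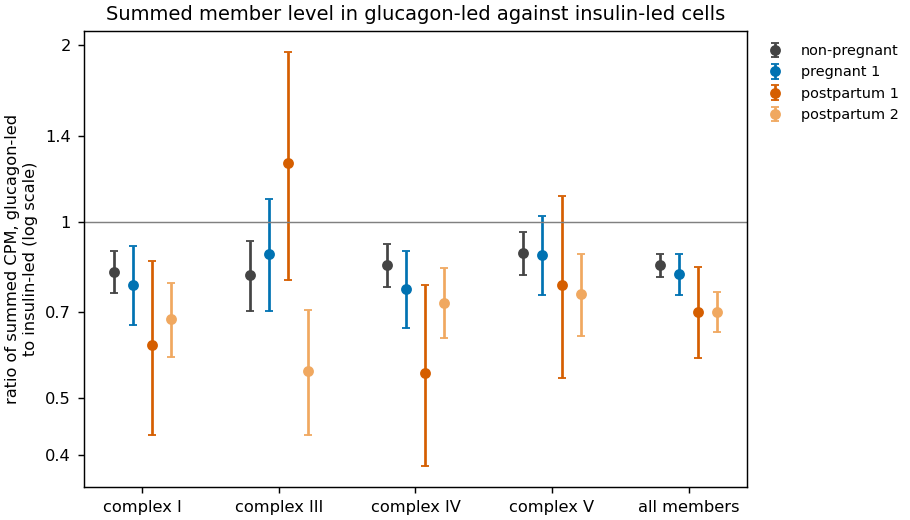
Ratio of the summed member CPM in glucagon-led cells to that in insulin-led cells of the same library, on a log axis, for each complex and for all 70 members, with exact 95% intervals. The ratios for all members lie between 0.701 and 0.843.

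Per gene the shift was small and only in part shared with other genes. Among 2436 genes averaging 100 CPM or more, limma with library as a block called 80 (3.28%) at an adjusted p under 0.05. Of the 55 members tested it called 1, Cox6a2, which is a share near that background. Cox6a2 passed the filter on low levels only through pregnant 2, and without that library 0 of 53 members were called. Of the 55 differences 44 were below 0, against 1418 of those of the 2436 genes. The members' median log2 difference in CPM + 100 was −0.25, against −0.09 over all genes tested. With hormone UMIs in the denominator, where 36 members and 1274 genes passed the filter, the medians were −0.10 and 0.03. By complex the medians were −0.27 for complex I, −0.16 for complex III, −0.29 for complex IV and −0.17 for complex V. In the non-pregnant library 45 of 61 members at 100 CPM or more in insulin-led cells (73.8%) were lower in glucagon-led cells, against 61.2% of 2590 genes at that level. In pregnant 1, postpartum 1 and postpartum 2 the members' shares were 70.4%, 67.3% and 76.5%, against 60.9%, 68.3% and 67.2%.

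Over the libraries other than pregnant 2, 20 members were lower in glucagon-led cells in all 4, among them Uqcrb, Cox8a, Cox7a2l, Atp5a1, Atp5b, Atp5g1 and Atp5g3. Higher in all 4 were Atp5e, Ndufa6 and Ndufb11. Among genes averaging 100 CPM or more over both classes, 18 of 53 members (34.0%) were lower in all 4, against 20.1% of 2407 genes, and 3 (5.66%) were higher in all 4, against 13.5%. Cox7a2l was at 289, 469, 159 and 291 CPM in glucagon-led cells of non-pregnant, pregnant 1, postpartum 1 and postpartum 2, below the insulin-led value in each. Its log2 difference of −1.05 ± 0.39 (SE) did not pass limma's test (adjusted p = 0.177), and passed in edgeR's quasi-likelihood test (log2 difference −1.16, adjusted p = 0.0460), which called 2 of 54 members and 6.38% of 3228 genes. Ndufa4, an accessory subunit of complex IV first assigned to complex I, was at 215, 276, 0 and 41.5 CPM in glucagon-led cells and differed by −1.05 ± 0.40 (limma adjusted p = 0.195). At the other end, Atp5d, Ndufa6 and Atp5e differed by 0.51, 0.50 and 0.49, and none of the 3 passed limma's test.

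In another fit, only cells whose leading hormone made up at least 90% of the UMIs of the 4 hormones were kept. The members called rose from 1 to 5 of 55, all lower in glucagon-led cells. Of all 2371 genes 10.9% were called, 180 lower and 79 higher, so the members' share is near that background. Among the members called were Cox6a2 (log2 difference −1.88), Cox7a2l (−1.15), Ndufb9 (−1.13), an accessory subunit of complex I, and Atp5g3 (−0.94), with limma adjusted p of 0.000862, 0.0234, 0.0279 and 0.0444.

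**Figure D3:**
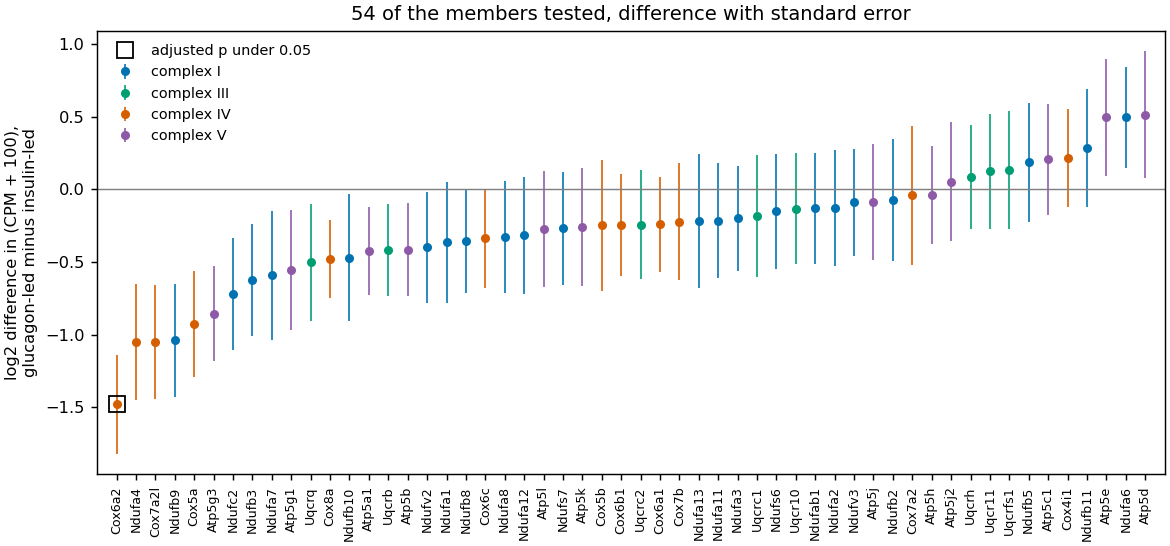
Log2 difference in CPM + 100 between glucagon-led and insulin-led cells for 54 of the 55 members tested, ordered by size and coloured by complex, with limma's standard error as bars. Most points lie below 0, and the square marks Cox6a2, the member called at an adjusted p under 0.05.

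Cox6a2 (chr7:128205435-128206387, minus strand, GRCm38) differed most. In glucagon-led cells it had 1 UMI in non-pregnant, 0 in pregnant 1, 1 in pregnant 2, 1 in postpartum 1 and 1 in postpartum 2, against 160, 128, 18, 11 and 64 UMIs in insulin-led cells. Somatostatin-led and Ppy-led cells had 0 UMIs of it in all 5 libraries. The log2 difference was −1.48 ± 0.34 (limma adjusted p = 0.0100) for glucagon-led cells and −1.67 ± 0.38 for both other classes (adjusted p = 0.0102 for somatostatin-led and 0.0112 for Ppy-led). In both other classes the fit took 0 UMIs as 0 CPM. In pregnant 1 and postpartum 2, 3 UMIs stand for 255 and 404 CPM in somatostatin-led and 309 and 542 CPM in Ppy-led cells. Insulin-led levels there were 246 and 332 CPM, so the somatostatin-led and Ppy-led calls rest partly on zeros that cannot show a difference. Of 2436 genes, 2.34% were called in the somatostatin-led and 3.0% in the Ppy-led comparison, where Cox6a2 was again the 1 member called of 55 tested. Cox6a2 passed the filter on low levels only through pregnant 2, where 18 UMIs lay in 1 insulin-led cell. With that library left out and no filter, an alternative chosen after the data were seen, limma's adjusted p was 0.00659, 0.00808 and 0.00794, and 1.70%, 1.06% and 1.24% of 6536 genes were called. With the filter kept and that library left out, Cox6a2 was not tested. The call was lost for each class without the non-pregnant library and without pregnant 1, and for somatostatin-led and Ppy-led cells also without postpartum 2. Over those fits the log2 difference ran from −1.38 to −1.83, with limma adjusted p of 0.0762 to 0.152. Nor was Cox6a2 called in glucagon-led cells with cells of at least 200 UMIs or with all profiles of at least 10 cells. In somatostatin-led cells it was not called with the 90% rule, cells of at least 200 UMIs or a pseudocount of 1000. In Ppy-led cells it was not called with the 90% rule or that pseudocount.

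Pooled over the 4 libraries without pregnant 2, Cox6a2 stood at 198 CPM (179 to 220, 363 UMIs in 250 of 3751 cells) in insulin-led cells. Glucagon-led cells had 3 UMIs, or 13.8 CPM, which makes the insulin-led level 14.4 times as high with a counting interval of 4.89 to 70.2. Somatostatin-led cells had 0 of 74462 UMIs and Ppy-led cells 0 of 64692. Set against 3 counts over each pooled class, the insulin-led level was 4.93 times as high for somatostatin-led and 4.28 times for Ppy-led cells. Within the non-pregnant library the same ratios were 2.66 and 2.40. They were 0.964 and 0.796 in pregnant 1, 0.139 and 0.0997 in postpartum 1, and 0.823 and 0.613 in postpartum 2. At those depths 0 counts cannot show a difference. Cox6a1 was detected in all 4 classes, at 815, 785, 698 and 696 CPM in insulin-led, glucagon-led, somatostatin-led and Ppy-led cells. Its log2 differences from insulin-led cells were −0.24, −0.74 and −0.27, none past limma's test. Cox6a2 made up 19.6% of the UMIs of both isoforms in insulin-led and 1.72% in glucagon-led cells.

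**Figure D4:**
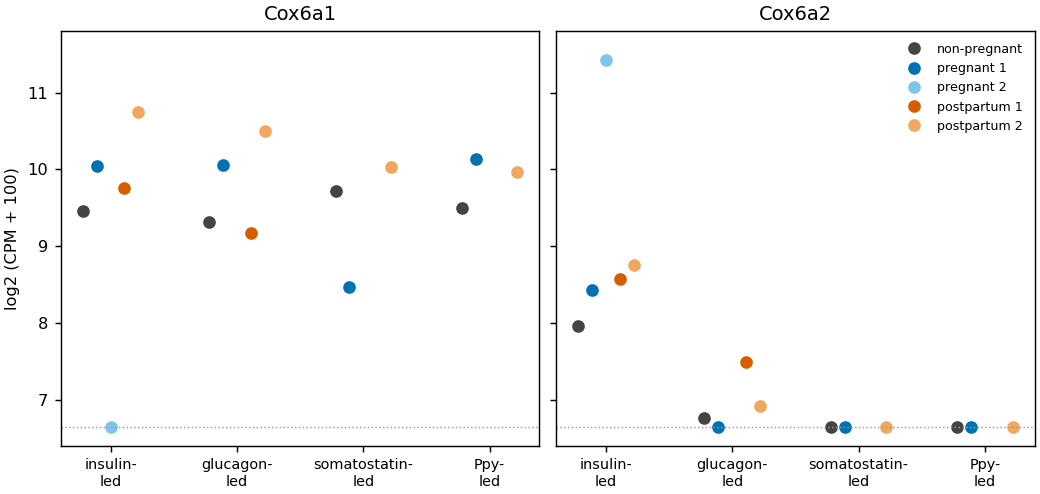
Levels of Cox6a1 (left) and Cox6a2 (right) by cell class and library as log2 of CPM + 100, for the 15 profiles of at least 10 cells and 5000 non-hormone UMIs. The dotted line is a level of 0 CPM. Cox6a2 lies on or near it outside insulin-led cells, while Cox6a1 is present in all classes except insulin-led cells of pregnant 2.

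Somatostatin-led and Ppy-led cells were few, and 3 libraries had enough UMIs for the fit. Summed member levels in somatostatin-led cells were 0.943 (0.886 to 1.00), 0.858 (0.747 to 0.982) and 0.612 (0.497 to 0.746) of those in insulin-led cells in non-pregnant, pregnant 1 and postpartum 2. In Ppy-led cells the ratios were 0.912 (0.853 to 0.975), 0.839 (0.719 to 0.975) and 0.607 (0.476 to 0.764). Complex IV was lowest in both: its 12 members had a median log2 difference of −0.79 in somatostatin-led cells, with 12 of 12 below 0, and −0.73 in Ppy-led cells, with 11 below 0. Of the 2436 genes tested, 1423 were below 0 in somatostatin-led and 1439 in Ppy-led cells. Over all 55 members the medians were −0.27 and −0.46, against −0.11 and −0.16 over all genes. With hormone UMIs in the denominator fewer genes passed the filter on low levels, 36 members and 1274 genes in all. The somatostatin-led median over those members was 0.22, and that of all genes 0.31. The 9 complex IV members tested had a median of −0.19, with 5 below 0 and 4 above, against 354 below and 920 above over all 1274 genes. The Ppy-led median was then −0.28. Behind Cox6a2, Cox7a2l in somatostatin-led cells (log2 difference −1.52 ± 0.44, limma adjusted p = 0.0624) and Ndufa2 in Ppy-led cells (−1.58 ± 0.45, adjusted p = 0.0510) were nearest to the threshold.

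The second question is whether insulin-led cells differ between states. With all 5 libraries limma called 0 of the 53 members tested in each of the 3 comparisons, and edgeR 0 of 66. No member had an unadjusted p under 0.05 with either tool (0 of 53 and 0 of 66). Of 2193 genes, limma called 0.137% for pregnant against non-pregnant, 0.319% for postpartum against non-pregnant and 0.0912% for postpartum against pregnant, and edgeR called 0%, 0.0178% and 0% of 5622. The members' median log2 difference was −0.89 for pregnant against non-pregnant, −0.15 for postpartum against non-pregnant and 0.75 for postpartum against pregnant, against −0.57, −0.01 and 0.55 over all genes. Without pregnant 2 the same medians were 0.05, −0.21 and −0.13, against 0.02, −0.01 and −0.03. With hormone UMIs in the denominator and all 5 libraries, 33 members and 1080 genes were tested. The medians were then −0.78, −0.54 and 0.29, against −0.35, −0.37 and −0.15. The comparisons share libraries and are not independent.

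Without pregnant 2, when pregnant 1 stands alone and is taken to have the spread of the postpartum pair, limma called 2 of 54 members for postpartum against non-pregnant, where 6.39% of 2457 genes were called. Atp5c1 was among the members called. The same fit called 0 members for pregnant against non-pregnant, with 2 at an unadjusted p under 0.05 and 1.95% of genes called. For postpartum against pregnant it called 0 members, with 5 at an unadjusted p under 0.05 and 2.56% of genes called. In postpartum 1 and postpartum 2 the level of Uqcrb was 1.51 (1.02 to 2.15) and 1.90 (1.58 to 2.27) times that in pregnant 1, a library with the same file format, with intervals for counting error (log2 difference 0.67 ± 0.46, limma adjusted p = 0.742). Both postpartum libraries were above non-pregnant and pregnant 1 for 10 of the 70 members and below both for 23. Among the 54 members averaging 100 CPM or more these shares were 16.7% and 27.8%, against 24.9% and 26.1% of 2457 genes.

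In the fit without pregnant 2, non-pregnant and pregnant were single libraries, so the error rested on the spread of the postpartum pair. There Atp5c1, the gamma subunit of the ATP synthase stalk, was lower postpartum than in non-pregnant cells (log2 difference −1.58 ± 0.48). Its level was 371 CPM in non-pregnant cells and 74.9, 0, 25.6 and 98.7 CPM in pregnant 1, pregnant 2, postpartum 1 and postpartum 2. Atp5l, subunit g, was at 664 CPM in non-pregnant cells and at 156, 0, 359 and 140 CPM. The non-pregnant value is above each of the others for both genes. Both are among the 14 members whose last 200 transcript bases match another annotated gene over at least 100 bases at 95% identity or more, so the way reads with several matches were counted can change them. In the fit without pregnant 2 the 11 such members tested had a median log2 difference of −0.29 between postpartum and non-pregnant cells, and the 43 others −0.06. The part of such matches in these differences was not tested, nor whether the matching gene overlaps the member in position.

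**Figure D5:**
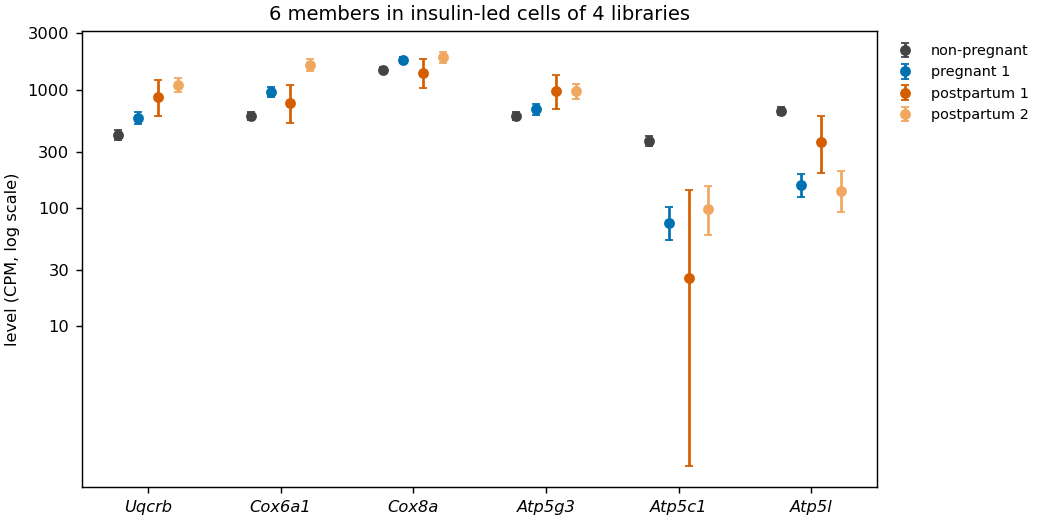
Level of 6 members in insulin-led cells of the 4 libraries other than pregnant 2, in CPM on a log axis, with exact 95% Poisson intervals. Uqcrb is highest in the postpartum libraries, Cox8a is highest of the members in each library, and Atp5c1 and Atp5l are highest in the non-pregnant library.

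Of the genes that work beside the members, 25 were tested between classes and 26 between states. All 4 complex II subunits were measured and 3 tested, with 0 called in the 3 class comparisons. The same held for Cycs, the electron carrier cytochrome c. Cyc1, cytochrome c1 of complex III, lacks the member prefixes, was measured and was not tested. Likewise 0 were called of 4 tested among 22 listed assembly factors of complexes III and IV. None was called either for Atpif1, which inhibits the ATP synthase running in reverse, or for all 8 carriers and pores such as the ADP/ATP carrier Slc25a5. Of 15 citric acid cycle genes, 8 were tested and 1 was called, Suclg1, lower in somatostatin-led cells. Between states 0 genes of these lists were called. With 2.34% to 3.28% of all genes called between classes and 0.0912% to 0.319% between states, these counts are near the background. Of 11 regulators, 4 were measured and 0 passed the filter on low levels.

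Mitochondrially encoded subunit transcripts are listed in the non-pregnant file. Its 13 mitochondrial protein genes gave 3.76 UMIs for each UMI of the 70 nuclear members in insulin-led cells, 2.57 in glucagon-led, 2.06 in somatostatin-led and 3.21 in Ppy-led cells.

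Cell by cell the difference between insulin-led and glucagon-led cells was a shift of overlapping distributions, whose width includes counting error. Among cells with at least 200 non-hormone UMIs, the member share had a median of 2.07% (quartiles 1.64% and 2.46%) in 680 insulin-led and 1.74% (1.41% and 2.03%) in 94 glucagon-led cells of the non-pregnant library. In pregnant 1 the medians were 2.04% and 1.68%, and in postpartum 2 they were 2.11% and 1.52%. Median depths there were 326 and 285, and 290 and 323 non-hormone UMIs, so each share rests on few member UMIs. Postpartum 1 and pregnant 2 had too few such cells. Within insulin-led cells, those below the median depth of their library and those at or above it had summed member levels of 20111 and 20875 CPM in non-pregnant, 21682 and 21388 in pregnant 1, and 20752 and 22582 in postpartum 2. In postpartum 1 they were 19955 (17629 to 22503) and 15954 (14447 to 17576) CPM, lower in the deeper cells.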

How the data were processed

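The authors deposited 1 matrix of genes by cells for each of 5 inDrop libraries. Per the submitters' processing notes, Partek 8.0 and Bowtie 1.1.1 were used, with GRCm38 and mm10 named as builds. The sources used here do not give the counter, the annotation or the cell filters. The non-pregnant file was deposited by the authors as a signal scaled to one total for each cell over 40930 features, and the others as log2 values that fit log2 of CPM + 1, over 6695 features, which were linearised as 2 to the power x minus 1. Dividing by each cell's step gave UMIs for 100% of values (within 0.1 of a whole number). Libraries held 14933 to 2561319 UMIs in 164 to 1993 cells. Cells carry running numbers, so barcodes shared between libraries could not be counted.

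UMIs of cells led by Ins1 and Ins2, Gcg, Sst or Ppy were summed per library over 6536 shared genes without hormones. Profiles of at least 10 cells and 5000 UMIs entered limma 3.58.1 on log2 of CPM + 100, for genes averaging 100 CPM or more, with Benjamini-Hochberg adjustment over all genes (R 4.3.3, threshold 0.05). Class comparisons had library as a block, and state comparisons used insulin-led profiles of the 5 libraries in 3 groups. Except with hormone UMIs in the denominator, limma's prior degrees of freedom for the state fits were infinite, so each gene took its error from the trend over genes. edgeR 4.0.16, other pseudocounts, filters, denominators and cell sets, and leaving out each library were alternatives. Scrublet (scanpy 1.11.5) marked 0 of 1993 cells in pregnant 1 and 1 of 1126 in postpartum 2 and was not taken as working, so doublets were left in except in 1 alternative. Matches to the ends of other genes were searched with blastn 2.17.0. The fits were tested on simulated data.

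The text names the 3 members with the highest insulin-led level in each complex, members called, the 3 highest and 3 lowest in the glucagon-led comparison, isoform families, core subunits and, after seeing their values, Ndufb9, Atp5l, Atp5c1, Ndufa2 in Ppy-led cells and the assembly factors. The members and lists were chosen with earlier results of these data known. A gene that the rule names is not reported here.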

Additional observations from a re-analysis of the deposited data

Results flagged for a closer look

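Subunit genes outside the shared set carried signal that the comparisons above do not use. In the non-pregnant file, 12 rows with a member prefix that the other files do not list had more than 3 UMIs, among them Atp5g2 with 775, Cox7c with 642, Atp5f1 with 481 and Ndufs5 with 413. Of the isoforms of complex IV listed only there, Cox4i2, Cox7b2, Cox8b and Cox8c had 0 UMIs, Cox7a1 had 1 and Cox6b2 had 2. In the pregnant and postpartum files, 5 rows that the non-pregnant file does not list had more than 3 UMIs: Atp5pb with 230, 0, 26 and 113 in pregnant 1, pregnant 2, postpartum 1 and postpartum 2, and Atp5mpl, Ndufs5-ps, Atp5md and Ndufb4c. Sums over complexes therefore leave these genes out in every library.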

How the results depend on the processing

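Numbers of members called, with the share of all genes called in the same fit in brackets, are given against 1 in each class comparison and 0 in each comparison of states. In glucagon-led cells 5 were called with a leading hormone of at least 90% (10.9%), 2 with edgeR (6.38%), and 0 with cells of at least 200 UMIs (3.19%) or with all profiles of at least 10 cells (0.750%). Leaving out a library gave 0 to 1 (1.22% to 3.41%). In somatostatin-led cells 2 were called with edgeR (3.07%), and 0 with the 90% rule (1.81%), with cells of at least 200 UMIs (2.50%) and with a pseudocount of 1000 (1.44%). Leaving out a library gave 0 to 1 (0.845% to 2.51%). In Ppy-led cells 3 were called with edgeR (3.31%), 2 with means over cells (2.81%), 2 with cells of at least 200 UMIs (2.90%), and 0 with the 90% rule (1.22%) and a pseudocount of 1000 (1.77%). Leaving out a library gave 0 to 1 (1.31% to 3.08%). Between states, 1 member was called with cells of at least 200 UMIs (postpartum against non-pregnant, 5.20%). Leaving out a library gave 0 to 43 for pregnant against non-pregnant, 0 to 2 for postpartum against non-pregnant and 0 to 45 for postpartum against pregnant; the values of 43 and 45 come without pregnant 1, when pregnant 2 and its 54 UMIs stand for the pregnant state. Of all genes, 74.6% and 82.7% were called in those fits, and 7.70% and 6.39% where 2 members were called, without pregnant 1 and without pregnant 2. In all of these the cause was not tested. The ratios of summed levels moved beyond counting error with hormones in the denominator, to 0.935 (non-pregnant), 0.894 (pregnant 1) and 0.887 (postpartum 2).

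The replicate block, tried for postpartum against pregnant, called 0 members and changed no call. Libraries with the same number did not deviate together (r = 0.00788 over 2193 genes), and the numbers were not taken as pairs. Depth limits postpartum 1 and pregnant 2 most: 3 UMIs stand for 76.9 and 443 CPM in their insulin-led cells.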
